A study of Mus musculus with 12 samples.

Results

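Fibroblast growth factor (FGF) signalling and the feedback on the kinase ERK were examined in male v6.5 mouse embryonic stem cells (mESCs) with and without the nucleosome-binding proteins HMGN1 and HMGN2. The genes were 10 of the 23412 in the deposited tables, chosen by name: the ligand Fgf4, the receptors Fgfr1 and Fgfr2, the feedback inhibitors Spry2 and Spry4, the phosphatases Dusp4 and Dusp6, the ETS transcription factors Etv4 and Etv5, and the immediate early gene Egr1. Bulk poly-A RNA-Seq was available for 12 libraries, with 3 replicates for WT mESCs and for the knockouts Hmgn1-/-, Hmgn2-/- and Hmgn1-/-Hmgn2-/-. The choice of genes was made with earlier results of these data known. The question was how the level of each gene differed between the 4 genotypes.

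All lines were grown on gelatin in medium with fetal bovine serum and LIF, and cells were harvested for RNA after 48 hours. WT mESCs were the parental line. The edit in Hmgn1-/- mESCs deletes 1 bp of Hmgn1 exon 3 on both alleles, and in Hmgn2-/- mESCs 1 bp is inserted into Hmgn2 exon 4 on both alleles. The double knockout, Hmgn1-/-Hmgn2-/- mESCs, comes from the Hmgn2-/- line, in which Hmgn1 was then edited. Each knockout line grew from a single edited cell, so that each genotype is represented by 1 clone and the effects of genotype and of clone cannot be told apart. The replicates are libraries of the same line, and p-values measure the spread between these libraries.

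In mouse embryonic stem cells, FGF4 is secreted and acts on the same cells through receptor tyrosine kinases, which relay the signal through Ras, Raf and MEK to ERK. Active ERK raises the transcription of Egr1, of the ETS factors Etv4 and Etv5, and of the inhibitors Spry2, Spry4, Dusp4 and Dusp6, which dampen the same pathway. In the early embryo this signal directs inner cell mass cells to the primitive endoderm, and in culture it readies pluripotent cells for differentiation. RNA levels of these genes are read here as RNA levels only, since ERK phosphorylation was not measured in these libraries.

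The edited genes were examined before the others. Levels are given throughout as counts scaled to a common library total (CPM), scaled by the trimmed mean of M values (TMM). Hmgn1 had 594 to 661 CPM in the WT libraries, 138 to 142 in Hmgn1-/-, 546 to 639.7 in Hmgn2-/- and 19.9 to 21.6 in Hmgn1-/-Hmgn2-/- mESCs. Hmgn2 had 119 to 137 CPM in WT, 106 to 113 in Hmgn1-/-, 50.9 to 54.5 in Hmgn2-/- and 50.5 to 54.5 in Hmgn1-/-Hmgn2-/- mESCs. Every knockout library thus lay, for the gene edited in it, below every library in which that gene was not edited. The libraries held 17337908 to 31448468 counts, and the 10 genes had 93 to 10472 counts per library. All 10 passed the filter on low counts in every comparison.

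Some libraries stood apart from the others of their genotype. In WT replicate 1 all 10 genes lay below the mean of the WT libraries, with a median deviation of −0.16 on the log2 scale against 0.00 over all genes. In Hmgn2-/- replicate 3, the library with the lowest total, 9 of the 10 lay below the mean of their group, with a median deviation of −0.12. Results are given with and without these libraries where leaving them out changed a call.

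Markers of the stem cells themselves were present in all libraries. The 9 mESC markers, of which Pou5f1 was the most abundant, summed to 6175 to 6365 CPM in WT, 6253 to 6695 in Hmgn1-/-, 5792 to 6899 in Hmgn2-/- and 5757 to 6415 in Hmgn1-/-Hmgn2-/- mESCs. Within this list Nanog fell and Klf4 rose against WT mESCs in each knockout, with adjusted p of 0.0014, 0.00152 and 0.000195 for Nanog and of 1.94e-06, 0.000899 and 5.7e-06 for Klf4 (edgeR's quasi-likelihood test, adjusted after Benjamini-Hochberg), and Esrrb rose in Hmgn1-/- and Hmgn1-/-Hmgn2-/- mESCs. The 5 neural markers, led by Tubb3, summed to 180 to 209 CPM in WT mESCs and to 187 to 205 in the knockouts. Behind this sum, Nes was lower in each knockout (57.2 CPM in WT, 35.5, 33.1 and 33.4 in Hmgn1-/-, Hmgn2-/- and Hmgn1-/-Hmgn2-/- mESCs) and Sox1 was higher (17.1, then 25.6, 27.5 and 30.1), all at an adjusted p under 0.01, and Pax6 was higher in Hmgn1-/- mESCs (log2 FC 0.75, adjusted p = 0.00432). In bulk samples, fewer cells of a type and less RNA per cell cannot be told apart.

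Markers of other cell types moved with the genotypes that are compared here. Of 13 primitive endoderm markers, 9 were higher in Hmgn1-/-, 9 in Hmgn2-/- and 12 in Hmgn1-/-Hmgn2-/- mESCs than in WT mESCs at an adjusted p under 0.01, while Sparc, the most abundant of them in WT mESCs, was lower in both single knockouts. Over all genes tested, 7.28%, 3.30% and 7.79% were higher at this threshold in the same order of knockouts. The most abundant in Hmgn1-/-Hmgn2-/- mESCs was Col4a1. Their summed level was 600.5, 773 and 814 CPM in WT replicates 1 to 3, 910.1, 765 and 827 in Hmgn1-/-, 1021 (replicate 1), 956 and 795 in Hmgn2-/-, and 1792, 1782 and 1684 in Hmgn1-/-Hmgn2-/- mESCs. Gata6, a transcription factor that defines this lineage, had 1.66 ± 0.326 CPM in WT and 25.2 ± 2.43 in Hmgn1-/-Hmgn2-/- mESCs (SD, n = 3 each). None of the 13 was at 0 in all libraries.

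Trophoblast and fibroblast markers went the other way. Of 7 trophoblast markers tested, 5, 4 and 5 were lower in Hmgn1-/-, Hmgn2-/- and Hmgn1-/-Hmgn2-/- mESCs and 0 were higher. Over all genes tested, 10.1%, 6.66% and 10.2% were lower in the same order. These shares also stand beside the other marker counts in this paragraph. The summed level of the 8 listed was 325, 372 and 507 CPM in the WT libraries, 82.9, 80.5 and 110.1 in Hmgn1-/-, 113, 115 and 152 in Hmgn2-/-, and 94.0, 107 and 121 in Hmgn1-/-Hmgn2-/- mESCs, with Krt8 the most abundant in all but Hmgn1-/- mESCs, where Tfap2c had a slightly higher mean. Most of the WT sum was the keratin genes Krt8 and Krt18, with means of 213 and 136 CPM. Cdx2 had only 0.812 to 1.29 CPM in the WT libraries and Elf5 at most 0.277 in any library. Cdx2, Elf5 and Tfap2c were not called in any knockout. Of 9 fibroblast and feeder markers, 5 were tested and all 5 were lower in each knockout. Their sum, most of it Tagln, was 84.7, 75.0 and 92.0 CPM in WT, 15.7, 16.1 and 21.9 in Hmgn1-/-, 18.4, 20.9 and 27.0 in Hmgn2-/-, and 11.98, 16.98 and 17.4 in Hmgn1-/-Hmgn2-/- mESCs. The defining fibroblast gene Lum was at 0 in all 12 libraries and Dcn had at most 3 counts in any of them. Of 7 formative and primed pluripotency markers, Fgf5 among them, 5 were lower in each knockout, and the sum was 702 to 786 CPM in WT, 614 to 732 in Hmgn1-/-, 549 to 672 in Hmgn2-/- and 548 to 622 in Hmgn1-/-Hmgn2-/- mESCs. Dnmt3b, the most abundant of them, was not called. The part of these cell types in the results for the FGF and ERK genes was not tested.

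A gene was called at an adjusted p under 0.01. Against WT mESCs, 5 of the 10 genes were called in Hmgn1-/- mESCs, beside 17.3% of all 13917 genes tested. Of these, Spry2, Etv4 and Etv5 were higher (3 genes, beside 7.28% of all genes) and Fgfr2 and Egr1 were lower (2 genes, beside 10.1%). In Hmgn2-/- mESCs 3 of the 10 were called, beside 9.97% of 14047 genes, with Etv4 higher (1 gene, beside 3.30%) and Fgfr2 and Egr1 lower (2 genes, beside 6.66%). In Hmgn1-/-Hmgn2-/- mESCs 7 of the 10 were called, beside 18.0% of 14128 genes, with Spry2, Spry4, Dusp4, Dusp6 and Etv4 higher (5 genes, beside 7.79%) and Fgfr2 and Egr1 lower (2 genes, beside 10.2%). The share of the 10 genes called was above that of all genes in each comparison, and most log2 FC were under 1 in size. Since the 10 genes were chosen with earlier results of these data known, the higher share is a description and not a test.

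With a log2 FC of at least 1 in size also required, 0 of the 10 were called in Hmgn1-/- mESCs (5.98% of all genes), 1 in Hmgn2-/- mESCs, Egr1 (5.15%), and 0 in Hmgn1-/-Hmgn2-/- mESCs (6.30%). The median log2 FC of the 10 genes was 0.24, 0.19 and 0.27 in Hmgn1-/-, Hmgn2-/- and Hmgn1-/-Hmgn2-/- mESCs, where the median over all genes tested was 0.00, 0.01 and 0.00. In each comparison 7 of the 10 had a positive and 3 a negative log2 FC, the latter being Fgf4, Fgfr2 and Egr1. Knockout libraries lay all above or all below the WT libraries for 8 of the 10 genes in Hmgn1-/- mESCs (42.5% of all genes), 7 in Hmgn2-/- mESCs (36.1%), with 9 in the double knockout (42.6%). The same 3 WT libraries entered all of these comparisons, so that their values for a gene are not independent of each other.

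**Figure D1:**
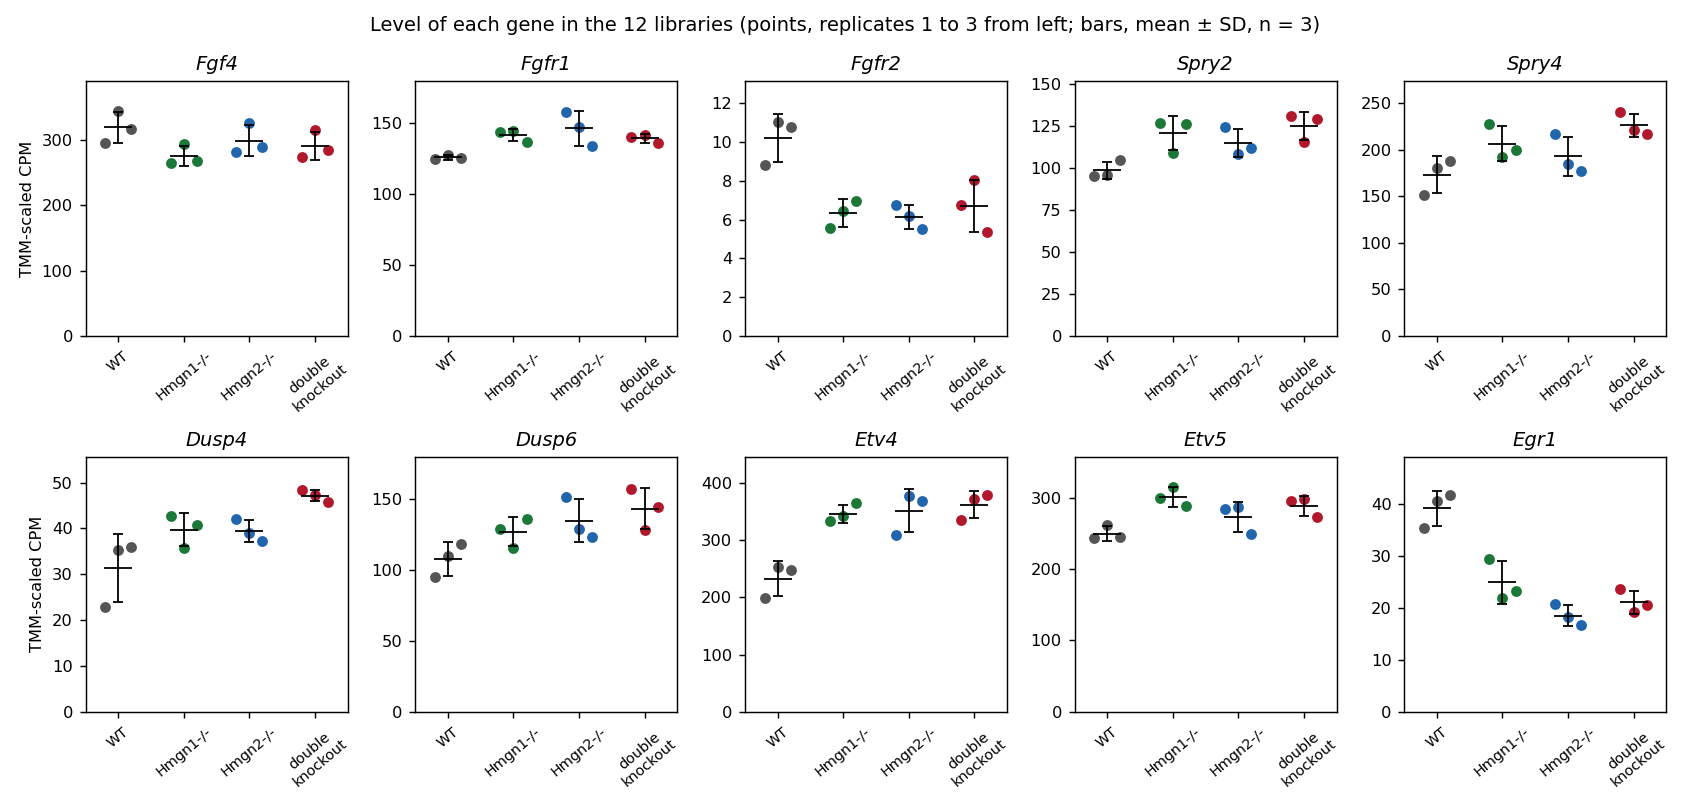
TMM-scaled CPM (y axis, linear from 0) of the 10 genes in the 12 libraries by genotype, with points for replicates 1 to 3 from left to right and bars for the mean ± SD (n = 3). Fgfr2 and Egr1 sit lower in all 9 knockout libraries than in any WT library. Fgfr1, Spry2 and Etv4 sit higher in all 9, though Fgfr1 was not called in any knockout. WT replicate 1 is the lowest WT point for Dusp4 at 22.8 CPM.

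The number of calls depended on single libraries. In Hmgn1-/- mESCs it was 3 without WT replicate 2, 3 without WT replicate 3 and 2 without Hmgn1-/- replicate 1, where 12.3%, 11.9% and 11.7% of all genes were called. In Hmgn2-/- mESCs it was 1 without WT replicate 3 and 1 without Hmgn2-/- replicate 2 (5.17% and 5.14% of all genes), and in Hmgn1-/-Hmgn2-/- mESCs it was 3 without Hmgn1-/-Hmgn2-/- replicate 1 (12.7% of all genes). The share of all genes called was thus also lower in these refits than with all libraries. The sign of the log2 FC of each of the 10 genes against WT mESCs was the same in every one of these refits and under RLE and upper quartile scaling.

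The ligand Fgf4 had 105 ± 7.98 CPM per kb of its principal transcript in WT mESCs (SD, n = 3), which with Etv4 was the highest level per length among the 10 genes. It lies on chromosome 7 of GRCm38, from 144861386 to 144865245. Its level was 319 ± 24.2 CPM in WT, 276 ± 15.8 in Hmgn1-/-, 299 ± 23.5 in Hmgn2-/- and 291 ± 21.2 in Hmgn1-/-Hmgn2-/- mESCs (SD, n = 3 each). With the genotypes ordered by their means, neighbours overlapped throughout. The WT libraries had 296, 344 and 317 CPM, and the Hmgn1-/- libraries, at 265, 294 and 268, lay just below them, with a log2 FC of −0.22 (standard error (SE) 0.065, adjusted p = 0.023 by edgeR's quasi-likelihood test, adjusted after Benjamini-Hochberg). This passed the threshold without WT replicate 1 (−0.28, adjusted p = 0.00129) and, with all libraries kept, with no filter beyond 1 count (−0.21, adjusted p = 0.00718, with a range of 0.00129 to 0.118 over the alternatives). In the other knockouts the log2 FC was −0.09 (95% interval −0.28 to 0.10) and −0.14 (−0.29 to 0.01), and without WT replicate 2 it was −0.04 and −0.08. Without Hmgn2-/- replicate 2 the former was −0.16, and without Hmgn1-/-Hmgn2-/- replicate 2 the latter was −0.20. Each Hmgn1-/-Hmgn2-/- library (273, 315 and 285 CPM for replicates 1 to 3) lay below the WT library of the same number. Fgf4 was not called there with the replicate number as a block.

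Both receptors transmit FGF signals through an intracellular kinase domain, and their log2 FC had opposite signs. In WT mESCs Fgfr1 had 25.1 ± 0.330 CPM per kb and Fgfr2 3.07 ± 0.367, so that Fgfr1 was the higher of the pair per length. Fgfr1 is on chromosome 8, from 25518759 to 25575718, and 125 of the 5025 bases of its principal transcript overlap the antisense gene Gm16159. Whether counting used the strand is not given in the sources used here, and reads on those bases could come from either gene. Fgfr1 had 125, 128 and 125 CPM in WT, 144, 145 and 137 in Hmgn1-/-, 158, 148 and 134 in Hmgn2-/-, and 141, 141 and 136 in Hmgn1-/-Hmgn2-/- mESCs. All 9 knockout libraries were higher than all 3 WT libraries, yet the gene was not called, with log2 FC of 0.16, 0.22 and 0.14 and adjusted p of 0.035, 0.0809 and 0.0644. Without Hmgn2-/- replicate 3 it passed in Hmgn2-/- mESCs (0.28, adjusted p = 0.00698, with a range of 0.00698 to 0.258 over the alternatives).

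Fgfr2, the receptor of the lowest level per length among the 10 genes, was lower in every knockout. It lies on the minus strand of chromosome 7, from 130162451 to 130266808. Promoter windows of 300 bases from RefSeq (GRCm38.p6), 250 before and 50 from the annotated start, were available for 5 of the 10 genes and cover 6 start sites. They were searched on both strands for CCGGAA, an ETS core with its flank, for AGGAAG, the PEA3 site named after the subfamily of Etv4 and Etv5, and for the AP-1 site TGACTCA. The ETS and PEA3 letters share the core GGAA, and none of the matches reported here overlap. Over 32851 windows of the same length, 14.9% hold the ETS letters, 35.4% the PEA3 letters and 5.20% the AP-1 letters. The window of Fgfr2 (chr7:130266759-130267058, minus strand, 5′ to 3′) is shown because this receptor fell in all knockouts, with its 2 PEA3 matches in capitals.
Fgfr2: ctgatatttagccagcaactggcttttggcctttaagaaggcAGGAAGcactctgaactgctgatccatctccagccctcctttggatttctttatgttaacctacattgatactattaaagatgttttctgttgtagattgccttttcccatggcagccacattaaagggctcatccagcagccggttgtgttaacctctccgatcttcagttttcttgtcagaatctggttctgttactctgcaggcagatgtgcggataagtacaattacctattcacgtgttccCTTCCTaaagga
A match is a description of the letters and says nothing about binding.

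Fgfr2 had 8.81, 11.03 and 10.8 CPM in the WT libraries, 5.57, 6.45 and 6.98 in Hmgn1-/-, 6.77, 6.17 and 5.53 in Hmgn2-/-, and 6.76, 8.04 and 5.34 in Hmgn1-/-Hmgn2-/- mESCs. No knockout library reached the lowest WT library, and the 3 knockouts overlapped with each other. The log2 FC was −0.69 in Hmgn1-/- (SE 0.140, adjusted p = 0.00213), −0.72 in Hmgn2-/- (0.146, adjusted p = 0.00573) and −0.61 in Hmgn1-/-Hmgn2-/- mESCs (0.156, adjusted p = 0.00942). In each comparison the gene lost its call without some libraries. In Hmgn1-/- mESCs these were WT replicate 2, WT replicate 3 and Hmgn1-/- replicate 1 (log2 FC −0.63, −0.65 and −0.60, adjusted p = 0.0112, 0.0103 and 0.0158, with a range of 0.000122 to 0.0158 over the alternatives). In Hmgn2-/- mESCs they were WT replicate 2, WT replicate 3 and Hmgn2-/- replicate 2 (−0.66, −0.68 and −0.71, adjusted p = 0.0319, 0.0342 and 0.0291, range 0.00058 to 0.0342). In Hmgn1-/-Hmgn2-/- mESCs they were WT replicate 2, WT replicate 3 and Hmgn1-/-Hmgn2-/- replicates 1 and 3 (−0.55, −0.57, −0.61 and −0.47, adjusted p = 0.0347, 0.0357, 0.0326 and 0.0466, range 0.00105 to 0.0466), and the call was also lost with at least 10 counts required in every library (−0.61, adjusted p = 0.01).

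Spry2 and Spry4 encode Sprouty proteins, which block the relay between receptor and ERK. Spry2 is on the minus strand of chromosome 14, from 105891947 to 105896819. Its window (chr14:105896770-105897069, minus strand) is shown as that of a feedback gene that rose, with its ETS match in capitals.
Spry2: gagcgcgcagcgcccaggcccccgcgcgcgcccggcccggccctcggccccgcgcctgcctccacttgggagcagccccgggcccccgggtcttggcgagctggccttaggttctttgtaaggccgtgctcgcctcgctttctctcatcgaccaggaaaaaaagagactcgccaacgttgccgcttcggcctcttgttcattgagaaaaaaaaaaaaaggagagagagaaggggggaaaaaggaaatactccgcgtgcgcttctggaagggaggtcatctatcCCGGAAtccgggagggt
Spry2 had 95.3, 95.6 and 105 CPM in WT, 127, 109 and 126 in Hmgn1-/-, 124, 108 and 112 in Hmgn2-/-, and 131, 115 and 129 in Hmgn1-/-Hmgn2-/- mESCs. All 9 knockout libraries lay above the WT libraries. The log2 FC passed the threshold in Hmgn1-/- mESCs (0.29, SE 0.0686, adjusted p = 0.0063) and in Hmgn1-/-Hmgn2-/- mESCs (0.34, SE 0.0646, adjusted p = 0.00136), and in Hmgn2-/- mESCs it was 0.22 (adjusted p = 0.0856). In Hmgn1-/- mESCs the call was lost without WT replicate 2, Hmgn1-/- replicate 1 or Hmgn1-/- replicate 3 (0.27, 0.25 and 0.25, adjusted p = 0.0278, 0.0355 and 0.0325) and in a single fit of all 12 libraries (0.28, adjusted p = 0.0143), with a range of 0.000437 to 0.0355 over the alternatives.

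Spry4 had 151, 180.5 and 188 CPM in WT, 228, 192 and 199.7 in Hmgn1-/-, 216, 185 and 177 in Hmgn2-/-, and 239.7, 221 and 217 in Hmgn1-/-Hmgn2-/- mESCs. Hmgn2-/- libraries overlapped with the WT libraries, while those of the other knockouts lay above them. It rose in Hmgn1-/-Hmgn2-/- mESCs (log2 FC 0.38, SE 0.0756, adjusted p = 0.00185), and the log2 FC was 0.25 in Hmgn1-/- (adjusted p = 0.0357) and 0.16 in Hmgn2-/- mESCs (adjusted p = 0.344). Without WT replicate 1 these were 0.15 and 0.06, and without Hmgn2-/- replicate 1 the latter was also 0.06. The call of Spry4 in the double knockout was lost without Hmgn1-/-Hmgn2-/- replicate 1 (0.34, adjusted p = 0.0109, with a range of 2.54e-05 to 0.0109 over the alternatives). With no filter beyond 1 count it also passed in Hmgn1-/- mESCs (0.25, adjusted p = 0.00437, range 0.00437 to 0.17).

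Dusp4 and Dusp6 encode phosphatases that remove the activating phosphates from ERK, DUSP4 in the nucleus and DUSP6 in the cytoplasm. Dusp4 is on chromosome 8, from 34807610 to 34819894, and Dusp6 is on chromosome 10, from 99263231 to 99267489. The window of Dusp6 (chr10:99262981-99263280, plus strand) is shown beside that of Spry2 since both genes rose in the double knockout, with its PEA3 match, read on the other strand, in capitals.
Dusp6: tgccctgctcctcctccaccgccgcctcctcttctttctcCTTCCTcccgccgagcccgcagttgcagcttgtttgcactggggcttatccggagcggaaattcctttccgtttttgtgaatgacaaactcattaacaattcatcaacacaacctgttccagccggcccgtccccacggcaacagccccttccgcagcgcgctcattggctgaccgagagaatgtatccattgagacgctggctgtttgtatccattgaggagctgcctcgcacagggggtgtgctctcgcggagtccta
Dusp4 had 22.8, 35.2 and 36.0 CPM in WT, 42.7, 35.7 and 40.9 in Hmgn1-/-, 42.0, 39.1 and 37.2 in Hmgn2-/-, and 48.3, 47.3 and 45.8 in Hmgn1-/-Hmgn2-/- mESCs. WT replicate 1 was far below the other WT libraries, and the Hmgn1-/- libraries overlapped with WT. Dusp6 had 94.8, 109.5 and 118 CPM in WT, 129, 116 and 136 in Hmgn1-/-, 152, 129 and 123 in Hmgn2-/-, and 157, 128 and 144 in Hmgn1-/-Hmgn2-/- mESCs. Here too a single Hmgn1-/- library lay within the range of WT.

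Both phosphatase genes were called in Hmgn1-/-Hmgn2-/- mESCs, with a log2 FC of 0.59 for Dusp4 (SE 0.132, adjusted p = 0.00396) and 0.41 for Dusp6 (SE 0.0848, adjusted p = 0.00254). In Hmgn1-/- mESCs the values were 0.35 and 0.23 (adjusted p = 0.0794 and 0.0448), and in Hmgn2-/- mESCs 0.34 and 0.32 (adjusted p = 0.159 and 0.0515), so that neither gene was called there. Without WT replicate 1 the log2 FC of Dusp4 in the double knockout was 0.39 and stayed past the threshold, while in Hmgn1-/- and Hmgn2-/- mESCs it was 0.15 and 0.14. That of Dusp6 in Hmgn1-/- mESCs was then 0.14. For Dusp4 the call in the double knockout was lost without any of the Hmgn1-/-Hmgn2-/- libraries (0.58, 0.59 and 0.62 without replicates 1 to 3, adjusted p = 0.0183, 0.0174 and 0.013, with a range of 2.25e-05 to 0.0183 over the alternatives). The call of Dusp6 was lost without Hmgn1-/-Hmgn2-/- replicates 1 or 3 (0.34 and 0.41, adjusted p = 0.0154 and 0.0113, range 3.44e-05 to 0.0154).

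Etv4 and Etv5 encode ETS transcription factors of the PEA3 group that act at the end of the FGF pathway. Among the 10 genes Etv4 had the highest log2 FC in Hmgn1-/- and in Hmgn2-/- mESCs. In Hmgn1-/-Hmgn2-/- mESCs Etv4 and Dusp4 (0.63 and 0.59) differed by less than the SE of either, and Dusp4 was the higher without WT replicate 3 (0.71 and 0.67) and without Hmgn1-/-Hmgn2-/- replicate 3 (0.62 and 0.60). It lies on the minus strand of chromosome 11, from 101769747 to 101785310. Its level was 198, 253 and 247 CPM in WT, 333, 342 and 364 in Hmgn1-/-, 308, 377 and 368 in Hmgn2-/-, and 336, 371 and 379 in Hmgn1-/-Hmgn2-/- mESCs. The lowest knockout library was above the highest WT library. The log2 FC was 0.57 in Hmgn1-/- (SE 0.0795, adjusted p = 0.000123), 0.59 in Hmgn2-/- (0.111, adjusted p = 0.00343) and 0.63 in Hmgn1-/-Hmgn2-/- mESCs (0.0826, adjusted p = 6.91e-05), or 1.48-fold, 1.51-fold and 1.55-fold. In Hmgn2-/- mESCs the call was lost without WT replicate 1, WT replicate 3 or Hmgn2-/- replicate 2 (0.48, 0.63 and 0.54, adjusted p = 0.0117, 0.0137 and 0.0216, with a range of 2.19e-05 to 0.0216 over the alternatives).

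Etv5 lies on the minus strand of chromosome 16, from 22381313 to 22439570, and has 2 annotated start sites in the promoter table. Both windows (chr16:22439521-22439820 and chr16:22438319-22438618, minus strand) are shown to compare the starts of the same gene, and the second start alone holds a match, that of the PEA3 letters.
Etv5, upstream start: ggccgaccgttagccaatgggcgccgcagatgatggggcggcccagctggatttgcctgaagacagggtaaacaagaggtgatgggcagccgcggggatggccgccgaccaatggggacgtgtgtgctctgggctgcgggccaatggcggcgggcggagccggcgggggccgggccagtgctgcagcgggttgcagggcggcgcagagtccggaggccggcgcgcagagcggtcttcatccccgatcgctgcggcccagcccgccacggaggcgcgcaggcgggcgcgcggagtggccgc
Etv5, downstream start: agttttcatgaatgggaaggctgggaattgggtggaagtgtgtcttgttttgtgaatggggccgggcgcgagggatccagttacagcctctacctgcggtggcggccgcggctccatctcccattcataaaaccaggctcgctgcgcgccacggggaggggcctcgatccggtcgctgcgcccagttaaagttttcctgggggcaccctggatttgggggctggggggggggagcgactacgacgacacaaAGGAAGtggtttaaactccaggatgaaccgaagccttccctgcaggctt
The 6 windows together held 0 matches to the AP-1 letters, and that of Fgf4 held none of the 3 motifs. Etv5 had 244, 261 and 244 CPM in WT, 300.3, 315 and 288 in Hmgn1-/-, 284, 288 and 249 in Hmgn2-/-, and 295, 299 and 273 in Hmgn1-/-Hmgn2-/- mESCs. The Hmgn2-/- libraries overlapped with WT and the other knockouts did not. It rose in Hmgn1-/- mESCs (log2 FC 0.27, SE 0.0562, adjusted p = 0.00284), and its log2 FC was 0.13 in Hmgn2-/- (adjusted p = 0.304) and 0.20 in Hmgn1-/-Hmgn2-/- mESCs (adjusted p = 0.0161).

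The call of Etv5 depended on settings as well. In Hmgn1-/- mESCs it was lost without WT replicate 3, Hmgn1-/- replicate 1 or Hmgn1-/- replicate 2 (log2 FC 0.25, 0.27 and 0.23, adjusted p = 0.0208, 0.0104 and 0.0259) and in a single fit of all 12 libraries (0.26, adjusted p = 0.0103), with a range of 0.000239 to 0.0259 over the alternatives. In Hmgn1-/-Hmgn2-/- mESCs Etv5 passed with DESeq2 (0.21, adjusted p = 0.0091), with no filter beyond 1 count (0.21, adjusted p = 0.00826) and without Hmgn1-/-Hmgn2-/- replicate 3 (0.25, adjusted p = 0.00964). It also passed with the replicate number as a block (0.20, adjusted p = 0.00717), with a range of 0.00717 to 0.0902 over the alternatives. The labels give no shared batch, and the block rests on weak correlations of same-numbered libraries with those of WT (r 0.102 to 0.170).

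Egr1, an immediate early gene that is transcribed within minutes of ERK activation, fell in all knockouts. Its level was 35.4, 40.6 and 41.7 CPM in WT, 29.5, 21.9 and 23.4 in Hmgn1-/-, 20.7, 18.3 and 16.7 in Hmgn2-/-, and 23.6, 19.3 and 20.5 in Hmgn1-/-Hmgn2-/- mESCs. The highest knockout library, Hmgn1-/- replicate 1, was below the lowest WT library. The log2 FC was −0.65 in Hmgn1-/- (SE 0.109, adjusted p = 0.000483), −1.07 in Hmgn2-/- (0.110, adjusted p = 8.17e-05) and −0.89 in Hmgn1-/-Hmgn2-/- mESCs (0.0958, adjusted p = 1.25e-05). As a share of the WT mean, these levels were 63.6%, 47.3% and 53.9%. The direction of Egr1 was thus opposite to that of Etv4, although both are targets of ERK, and its calls against WT held whichever library was dropped.

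**Figure D2:**
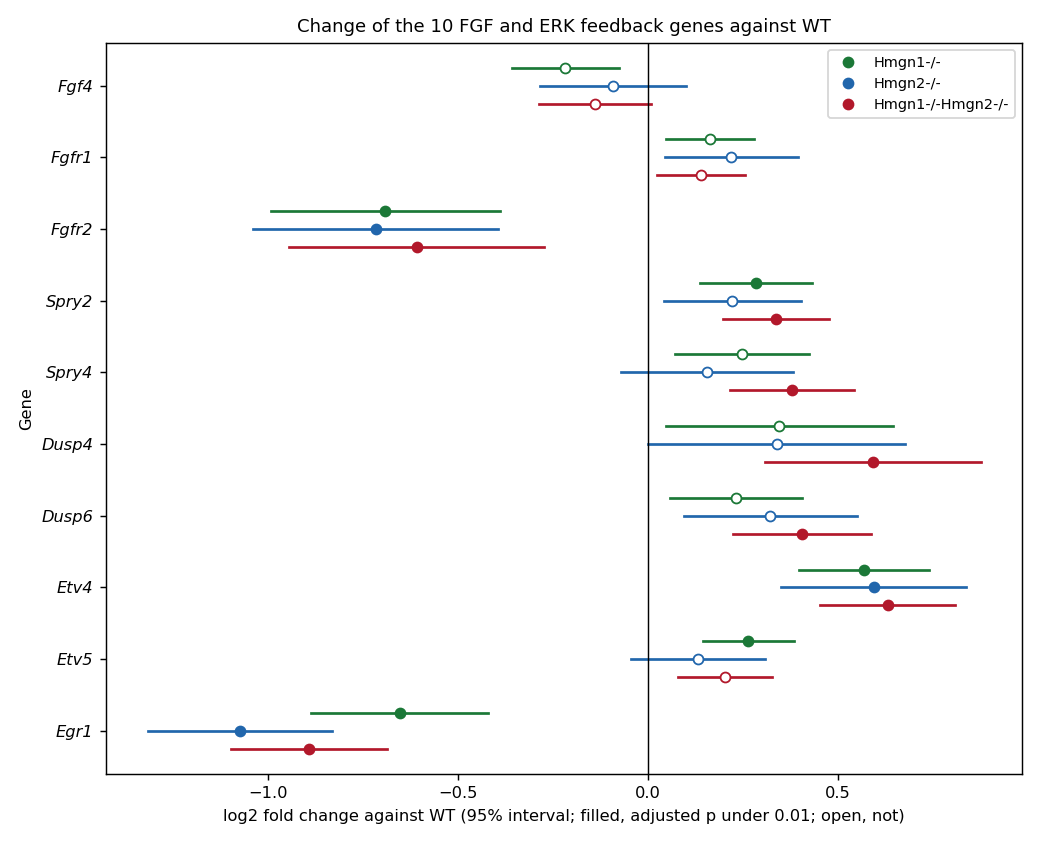
Log2 FC of the 10 genes against WT (x axis) with 95% intervals, by knockout, with filled points for an adjusted p under 0.01 and open points for the rest. Egr1 and Fgfr2 lie left of 0 in all 3 knockouts, with Egr1 at −1.07 in Hmgn2-/- mESCs, and Etv4 lies right of 0 in all 3, at 0.57 to 0.63.

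**Figure D3:**
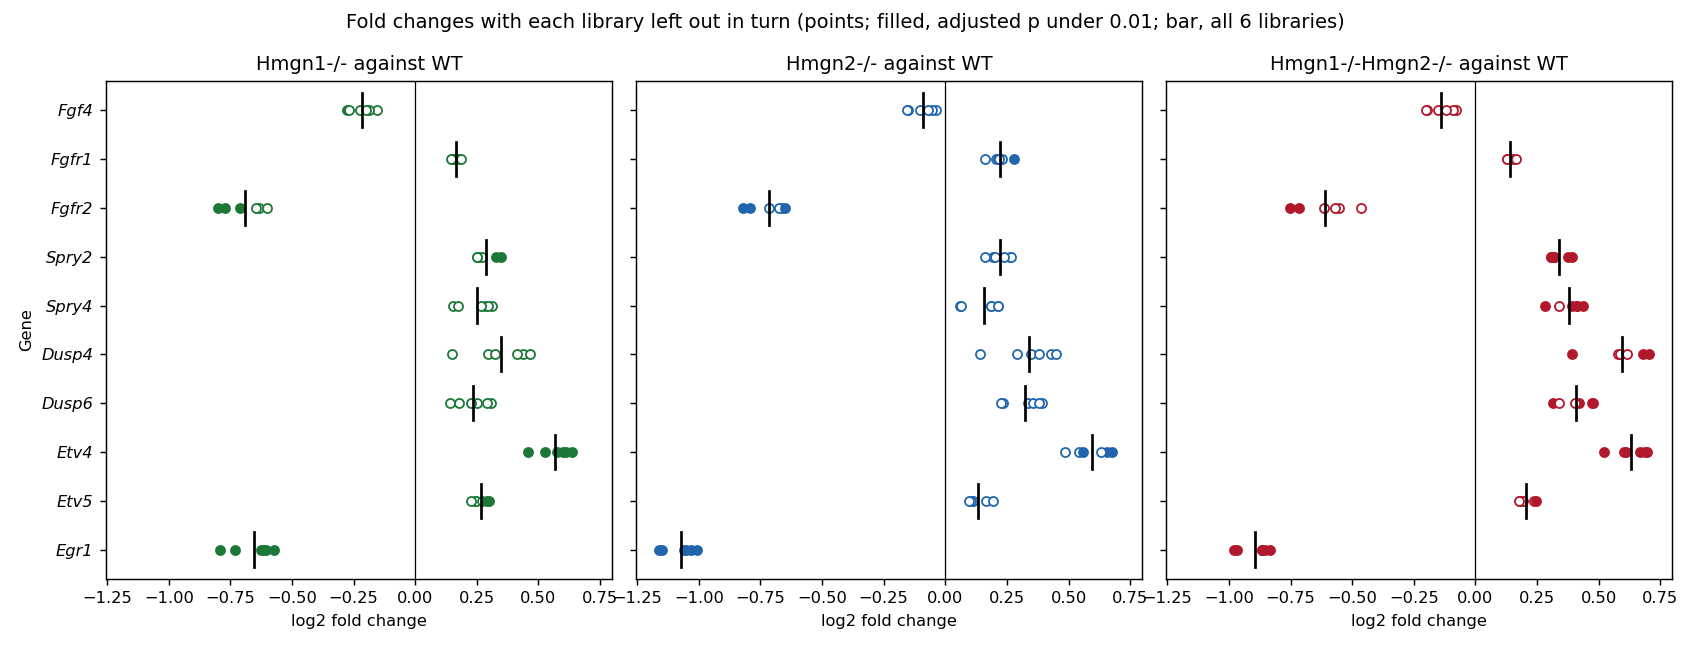
Log2 FC of the 10 genes against WT after dropping 1 of the 6 libraries at a time (points, filled for an adjusted p under 0.01), with a bar for the fit of all 6. All points of a gene lie on the same side of 0, those of Egr1 are filled throughout, and those of Dusp4 in the double knockout spread from 0.39 to 0.71.

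In WT mESCs the order of the 10 genes per length ran from Fgf4 at 105 ± 7.98 CPM per kb and Etv4 at 99.7 ± 12.8 through Etv5 at 62.9 ± 2.49, Spry2 at 47.2 ± 2.52, Dusp6 at 38.5 ± 4.24, Spry4 at 36.4 ± 4.09 and Fgfr1 at 25.1 ± 0.330 to Dusp4 at 11.4 ± 2.71, Egr1 at 8.75 ± 0.755 and Fgfr2 at 3.07 ± 0.367 (SD, n = 3 each). Fgf4 and Etv4 differed by less than the larger SD of the pair, as did Dusp6 and Spry4, and Dusp4 and Egr1. These levels assume the principal transcript of GENCODE M21 for each gene.

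Between the knockouts themselves, none of the 10 genes was called by edgeR's quasi-likelihood test. For Hmgn2-/- against Hmgn1-/- mESCs 0 of the 10 were called, beside 0.352% of 13648 genes, and 1 had an unadjusted p under 0.05 (437 of all genes did), Egr1 (log2 FC −0.42, 95% interval −0.71 to −0.13, adjusted p = 0.862). For Hmgn1-/-Hmgn2-/- against Hmgn1-/- mESCs 0 were called, beside 1.09% of 13710 genes, and 2 had an unadjusted p under 0.05 (1306 of all genes did), Dusp4 (0.25, 0.08 to 0.41, adjusted p = 0.183) and Dusp6 (0.17, 0.01 to 0.34, adjusted p = 0.459). The log2 FC of Dusp6 was 0.10 without Hmgn1-/-Hmgn2-/- replicate 1. For Hmgn1-/-Hmgn2-/- against Hmgn2-/- mESCs, the line it was made from, 0 were called, beside 0.0434% of 13816 genes, and 2 had an unadjusted p under 0.05 (613 of all genes did), Spry4 (0.23, 0.03 to 0.42, adjusted p = 0.969) and Dusp4 (0.26, 0.08 to 0.43, adjusted p = 0.664). DESeq2 also called 0 of the 10 in each, beside 0.351%, 1.27% and 0.393% of all genes. Genes that passed against WT in some knockouts and not in others are therefore not shown to differ between the knockouts. The 3 Hmgn1-/-Hmgn2-/- libraries had more Dusp4 than any other library, including all Hmgn1-/- and Hmgn2-/- libraries.

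Whether losing Hmgn1 had the same effect with and without Hmgn2 was tested as a departure from additivity on the log2 scale, the change from Hmgn2-/- to Hmgn1-/-Hmgn2-/- mESCs less the change from WT to Hmgn1-/- mESCs. Of the 10 genes 1 was called, beside 6.32% of 14323 genes, and this was Egr1 (0.84, SE 0.171, adjusted p = 0.00394). Egr1 fell from WT to Hmgn1-/- mESCs, and its log2 FC from Hmgn2-/- to Hmgn1-/-Hmgn2-/- mESCs was 0.18 (95% interval −0.07 to 0.44). This log2 FC was 0.095 without Hmgn1-/-Hmgn2-/- replicate 1 and 0.27 without Hmgn2-/- replicate 1. The call was lost without WT replicate 2, WT replicate 3, Hmgn1-/- replicate 2, Hmgn1-/- replicate 3, Hmgn2-/- replicate 2 or Hmgn1-/-Hmgn2-/- replicate 1 (0.81, 0.80, 0.75, 0.80, 0.83 and 0.75, adjusted p = 0.0129, 0.0141, 0.014, 0.0124, 0.0128 and 0.0128, with a range of 0.000126 to 0.0141 over the alternatives). Etv4 (−0.52, adjusted p = 0.0169) and Fgfr2 (0.81, adjusted p = 0.0255) departed in the direction of a smaller combined change but were not called. Among the settings under which Etv4 passed were DESeq2 (−0.53, adjusted p = 0.00463), no filter beyond 1 count (−0.53, adjusted p = 0.00473) and a fit without Hmgn2-/- replicate 1 (−0.61, adjusted p = 0.0034, with a range of 0.000349 to 0.0512 over the alternatives).

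The rest of the pathway was described from lists of 104 other genes, 102 of them in the table. In Hmgn1-/- mESCs 16 were higher and 17 lower of 89 tested, in Hmgn2-/- mESCs 8 were higher and 12 lower of 89, and in Hmgn1-/-Hmgn2-/- mESCs 19 were higher and 18 lower of 88. This is 37.1%, 22.5% and 42.0% of the genes tested, where 17.3%, 9.97% and 18.0% of all genes were called. These lists too were chosen with earlier results of these data known, so that the shares are a description and not a test. The counts given by list below are read beside the same shares of all genes. By list, the median log2 FC in Hmgn1-/-, Hmgn2-/- and Hmgn1-/-Hmgn2-/- mESCs was −0.04, −0.79 and −0.54 for the other ligands, 0.08, 0.16 and 0.15 for the other receptors and co-receptors, 0.06, 0.07 and 0.07 for the relay, −0.03, 0.04 and 0.17 for the other feedback inhibitors and −0.16, −0.14 and −0.23 for the other targets. Without WT replicate 1 the number called was 40, 14 and 39, beside 21.9%, 9.15% and 21.2% of all genes, and without Hmgn2-/- replicate 3 it was 25 in Hmgn2-/- mESCs, beside 13.5% of all genes. In Hmgn2-/- mESCs it was 7 without WT replicate 2, 8 without WT replicate 3 and 9 without Hmgn2-/- replicate 2. This is 7.78%, 8.99% and 10.0% of the genes tested, beside 5.10%, 5.17% and 5.14% of all genes. These settings were chosen after seeing the data.

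Among the other FGF ligands, 2, 1 and 2 were higher and 4, 2 and 4 lower of 11, 11 and 10 tested. Fgf5, a marker of formative and primed pluripotency, fell from 4.68 ± 0.891 CPM in WT mESCs to 0.212 ± 0.0855, 0.332 ± 0.186 and 0.258 ± 0.0538 (SD, n = 3 each), with a log2 FC of −4.40, −3.69 and −4.13. The knockout libraries had only 3 to 8, 2 to 12 and 5 to 10 counts of Fgf5, so that these folds are not exact. Fgf8 fell in Hmgn1-/- (−2.67, adjusted p = 0.000375) and Hmgn1-/-Hmgn2-/- mESCs (−2.33, adjusted p = 0.000401), and was at −1.72 in Hmgn2-/- mESCs (adjusted p = 0.0135). Its counts were 5 to 10 in Hmgn1-/-, 6 to 24 in Hmgn2-/- and 9 to 13 in Hmgn1-/-Hmgn2-/- libraries, so that these folds are not exact either. Fgf18 (−1.57 and −1.27) fell in Hmgn1-/- and Hmgn1-/-Hmgn2-/- mESCs, with −0.95 in Hmgn2-/- mESCs (adjusted p = 0.0486), and Fgf15 fell in all 3 knockouts (−0.90, −0.79 and −1.06). In the other direction, Fgf10 rose in all 3 (1.47, 1.40 and 2.45) from 0.840 ± 0.256 CPM in WT mESCs, and Fgf3 rose in Hmgn1-/-Hmgn2-/- mESCs (1.25, adjusted p = 0.000224). The ligand list thus split by gene. The most abundant of these ligands in CPM was Fgf17, at 28.3 ± 1.40 CPM per kb in WT mESCs beside 105 ± 7.98 for Fgf4, and it rose in Hmgn1-/- mESCs (0.32, adjusted p = 0.00565), with 0.28 and 0.17 in the other knockouts (adjusted p = 0.0783 and 0.137).

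Of 19 other receptors and co-receptors tested, 4, 3 and 4 were higher and 4, 2 and 3 lower in Hmgn1-/-, Hmgn2-/- and Hmgn1-/-Hmgn2-/- mESCs. Fgfr3, another FGF receptor, rose in all 3 (1.11, 1.06 and 1.28), from 2.33 ± 0.668 CPM in WT to 5.78 ± 0.251 in Hmgn1-/-Hmgn2-/- mESCs. Klb, which encodes the co-receptor beta-Klotho, had 4 to 12 counts in the WT libraries and passed the filter on low counts through the knockout libraries. Its log2 FC was 2.51, 2.46 and 3.91, and these folds over a low level are not exact. Flrt3, which encodes a membrane protein that binds FGF receptors, rose by 1.13, 1.24 and 2.07. Klb and Flrt3 were also higher in Hmgn1-/-Hmgn2-/- than in Hmgn1-/- mESCs at an adjusted p under 0.01. Against Hmgn2-/- mESCs edgeR's quasi-likelihood test called 0 of the 19 (adjusted p = 0.0435 for Klb and 0.168 for Flrt3). Over all the pathway lists it called 0 of 87 in that comparison, beside 0.0434% of all genes. DESeq2 called 3 of 87, beside 0.393% of all genes. The fit with no filter beyond 1 count called 1 of 101, beside 0.163% of all genes. Ext1, a heparan sulfate polymerase subunit and the most abundant of the list in CPM over all libraries, though Hs6st1 was in WT and Sdc1 in Hmgn1-/-Hmgn2-/- mESCs, had log2 FC of 0.39, 0.29 and 0.22, the first of which passed (adjusted p = 0.00091).

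The relay from receptor to ERK held calls of small size. Of 21, 22 and 22 genes tested, 4, 1 and 4 were higher and 1 was lower in each, and none reached a log2 FC of 1 in size together with the threshold. Over all genes 17.3%, 9.97% and 18.0% were called. The share of the relay genes called was near these, and below in Hmgn2-/- mESCs. Gab1, an adaptor that binds activated receptors and the most abundant of this list in CPM, rose in Hmgn1-/- (0.35, adjusted p = 0.00141) and Hmgn1-/-Hmgn2-/- mESCs (0.36, adjusted p = 0.00136) and was at 0.30 in Hmgn2-/- mESCs (adjusted p = 0.0559). Of 15 other feedback inhibitors, 1, 1 and 4 were higher and 3, 1 and 4 lower. Dusp10, a phosphatase of the stress kinases, fell in all 3 (−1.59, −1.26 and −0.98), and Dusp9, the most abundant of the list, rose in Hmgn1-/-Hmgn2-/- mESCs (0.22, adjusted p = 0.00831).

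Other transcriptional targets of ERK also moved in both directions, with 5, 2 and 5 higher and 5, 6 and 6 lower of 23, 22 and 22 tested. Jun, a subunit of AP-1, fell in all 3 knockouts (−1.21, −0.76 and −0.85), from 12.6 ± 2.01 CPM in WT mESCs. Junb, which encodes another AP-1 subunit and was more abundant, rose in all 3 (0.66, 0.64 and 0.53, adjusted p = 1.49e-05, 0.00149 and 0.000173), from 66.3 ± 5.87 CPM in WT mESCs, so that the AP-1 genes went both ways. The AP-1 subunit gene Fosl2 (−0.92, −1.03 and −1.41) fell likewise, as did the ETS factor gene Ets1, from 4.72 CPM in WT to 1.47 in Hmgn1-/-, 2.09 in Hmgn2-/- and 2.35 in Hmgn1-/-Hmgn2-/- mESCs. Fos fell in Hmgn2-/- mESCs (−1.04, adjusted p = 0.00768), with −0.69 and −0.77 in the other knockouts (adjusted p = 0.0755 and 0.025). Egr4, a relative of Egr1, rose in Hmgn1-/- (1.33) and Hmgn1-/-Hmgn2-/- mESCs (1.30) and was at 0.76 in Hmgn2-/- mESCs (adjusted p = 0.0393), the opposite direction to Egr1. Egr3, another relative, was too low to be tested, with 9 to 13 counts in the WT libraries and 0 to 6 in the knockout libraries. Mcl1, the most abundant gene of this list, had log2 FC of −0.16, −0.10 and −0.11 and was not called.

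**Figure D4:**
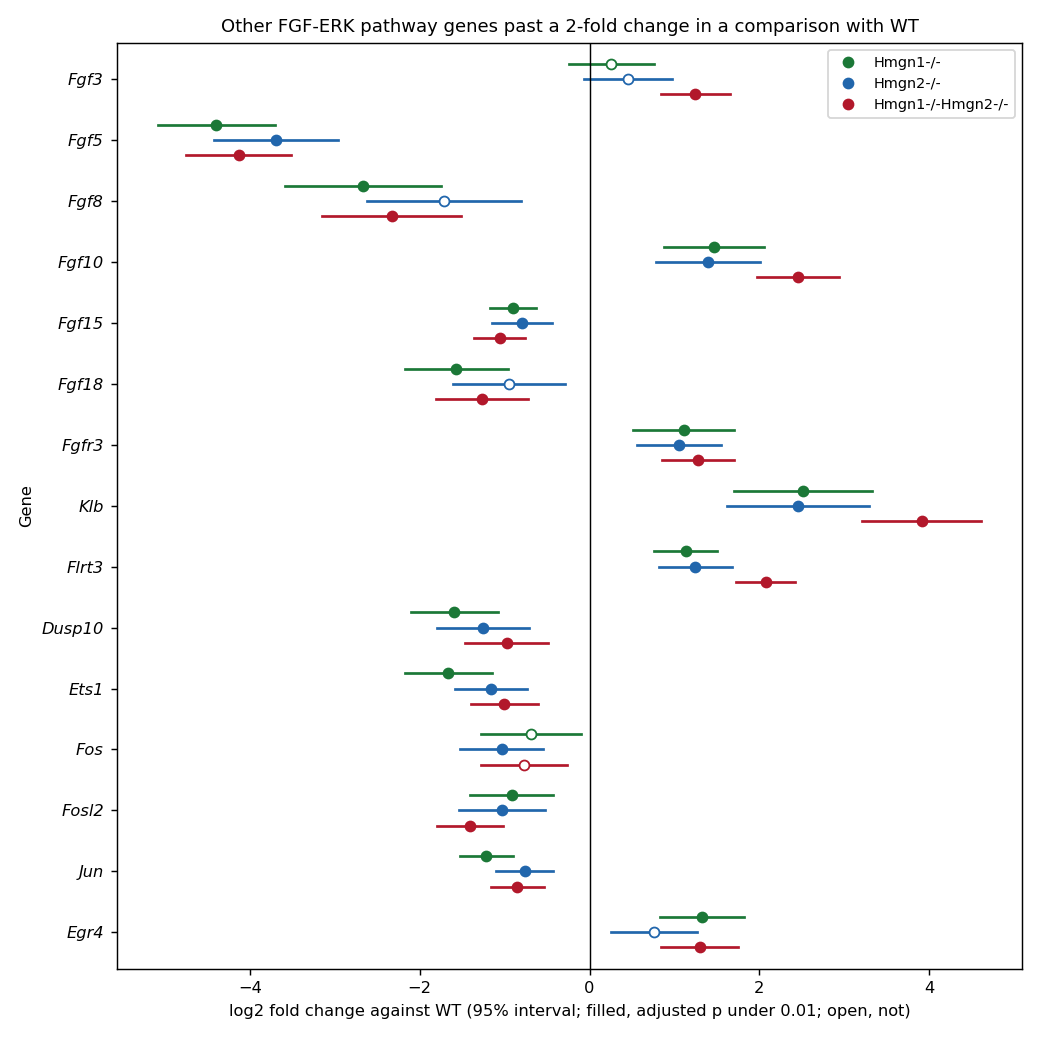
Log2 FC against WT (x axis) with 95% intervals for the 15 other pathway genes that reached a log2 FC of at least 1 in size with an adjusted p under 0.01 in any knockout, with filled points for an adjusted p under 0.01. Fgf5 is farthest to the left at −4.40 to −3.69, and Klb farthest to the right at 2.46 to 3.91. These folds rest on low counts, in the knockouts for Fgf5 and in WT for Klb, and are not exact. The folds of Fgf8 also rest on low counts in the knockouts.

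For each of the 8 genes called against WT mESCs, the genes of most similar pattern were taken over the 12 libraries by the root mean square difference of log2 CPM, centred per gene, among 11554 other genes that averaged 50 counts or more. Etv4, whose own root mean square around its mean was 0.286, was nearest to Dok2 (0.0660), Pcsk6 (0.0738) and Srxn1 (0.0835). Egr1 (own value 0.430) was nearest to Fbln1, Scube3 and Zfp600 (0.146 to 0.150), and Fgfr2 (0.337) to Tcf7l2, Slc20a1 and Tbc1d25 (0.132 to 0.142). Spry2 was nearest to Cdip1, Kpna4 and Abhd13, Spry4 to Ncoa3, Slc4a2 and Zfp652, Dusp4 to Ccrn4l, Anpep and F2rl1, and Etv5 to Gtpbp1, Wdr6 and Klhl21. Dusp6 was nearest to Lnx2 (0.0849), Cbfb (0.0859) and Spry2 (0.0870), the only case in which another of the 10 genes was among the 3 nearest. Within the 10 genes the closest pair was Fgfr1 and Etv5 (0.0798), where the own value of Etv5 was only 0.120. Fgfr2 and Egr1, the genes called lower in every knockout, were each nearest to the other (0.270), beside own values of 0.337 and 0.430. A gene that varies little has small differences from other such genes.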

How the data were processed

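Paired-end reads of poly-A RNA had been mapped by the authors with STAR (mm10), and the deposited table holds raw counts. The counting program, annotation and strand setting are not given in the sources used here. From the deposited counts, each comparison was fitted over the libraries of its genotypes (all 12 for additivity) in R 4.3.3 with the quasi-likelihood test of edgeR 4.0.16 after TMM scaling and filterByExpr, and p-values were adjusted after Benjamini-Hochberg over all genes tested. CPM values are TMM-scaled over the 12 libraries.

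The 10 genes and the other lists were chosen with earlier results of these data known. Named besides the 10 were pathway genes past a log2 FC of 1 with an adjusted p under 0.01 against WT, and the gene of highest mean CPM of each list; Junb and the markers named singly were added after their values were seen. The gene lists were other FGF ligands, other receptors and co-receptors, the receptor to ERK relay, other feedback inhibitors and other ERK targets, with markers of mESCs, primitive endoderm, formative and primed cells, trophoblast, fibroblasts and feeders, and neural cells. A prior count of 2 was used for log2 CPM.

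Alternatives were DESeq2 1.42.0, RLE or upper quartile scaling, other count filters and thresholds, a single fit of all 12 libraries, a replicate block, and each library left out. Replicate numbers were checked for pairing by correlating deviations from group means over 14302 genes: every same-numbered pair was over 0.1 for Hmgn1-/-Hmgn2-/- against WT alone (r 0.102 to 0.170). The pairing comes from the data, since the labels give no shared batch. No pair of replicates agreed within sampling noise. Positions come from RefSeq (GRCm38.p6) and transcript lengths from GENCODE M21.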

Additional observations from a re-analysis of the deposited data

Results flagged for a closer look

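Egr1 drew attention because the change linked to Hmgn1 differed between lines with and without Hmgn2. The departure from additivity was 0.84 on the log2 scale (standard error 0.171, adjusted p = 0.00394 by edgeR's quasi-likelihood test, adjusted after Benjamini-Hochberg), and it was tested as the interaction itself. Egr1 went from 39.2 ± 3.39 CPM in WT to 24.9 ± 4.06 in Hmgn1-/- mESCs, and from 18.6 ± 2.02 in Hmgn2-/- to 21.1 ± 2.23 in Hmgn1-/-Hmgn2-/- mESCs (SD, n = 3 each). Without WT replicate 2, WT replicate 3, Hmgn1-/- replicate 2, Hmgn1-/- replicate 3, Hmgn2-/- replicate 2 or Hmgn1-/-Hmgn2-/- replicate 1 the value was 0.75 to 0.83 and no longer past the threshold, with adjusted p of 0.0124 to 0.0141 (0.000126 to 0.0141 over all alternatives). The double knockout was made from the Hmgn2-/- line and each line is 1 clone, so that clone and genotype cannot be told apart.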

How the results depend on the processing

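The log2 FC of the 10 genes against WT mESCs had the same sign under every alternative run. Of the counts of calls, that for Hmgn1-/- mESCs (5, beside 17.3% of all genes) was 0 with a log2 FC of at least 1 in size also required (5.98%), 9 at an adjusted p under 0.05 (28.4%), 3 in a single fit of all 12 libraries (15.0%), 9 with the replicate block (24.4%), and 2 to 6 when single libraries were dropped (11.2% to 21.9%). For Hmgn2-/- mESCs (3, beside 9.97%) it was 1 with the fold limit (5.15%) and 1 to 4 with libraries left out (5.10% to 13.5%), and for Hmgn1-/-Hmgn2-/- mESCs (7, beside 18.0%) it was 0 with the fold limit (6.30%) and 3 to 7 with libraries left out (11.9% to 21.2%). The calls of the additivity test (1, beside 6.32%) were 2 with DESeq2 (8.29%), 2 with no filter beyond 1 count (5.69%), 0 with the fold limit (3.48%), 3 at an adjusted p under 0.05 (13.2%), 2 with the replicate block (10.2%) and 0 to 2 with libraries left out (4.02% to 7.53%). The fold limit acts by its construction, since 9 of the 10 genes changed by less than it in every comparison with WT. The cause of the other shifts was not tested. Scaling by RLE or upper quartile moved the median log2 FC of all genes by at most 0.0158.

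Every same-numbered pair correlated over 0.1 only for Hmgn1-/-Hmgn2-/- against WT mESCs (r 0.102 to 0.170). There the replicate block gave 8 calls (22.1% of all genes) by adding Etv5 and changed no other call. The cut of 0.1 was a choice, and single pairs elsewhere correlated more, up to 0.304 for Hmgn1-/-Hmgn2-/- against Hmgn2-/- mESCs. In the other comparisons, where the lowest correlation was 0.0128 to 0.0930, it gave 9 calls for Hmgn1-/- mESCs against WT (adding Fgf4, Spry4, Dusp4 and Dusp6), 2 for Hmgn2-/- mESCs against WT (without Fgfr2, 9.50% of all genes) and 0 between knockouts, and it added Etv4 to the additivity test. Every library correlated best with its own number for Hmgn2-/- against Hmgn1-/- and for Hmgn1-/-Hmgn2-/- against Hmgn2-/- mESCs, which is a hint from the data and not the design.

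The sign changed with a library left out for some genes that were not called. For Hmgn2-/- against Hmgn1-/- mESCs the ranges were −0.079 to 0.041 for Dusp4, −0.036 to 0.11 for Etv4, −0.12 to 0.047 for Fgfr2, −0.0050 to 0.11 for Fgfr1 and −0.0078 to 0.14 for Dusp6. For Hmgn1-/-Hmgn2-/- against Hmgn1-/- mESCs they were −0.059 to 0.22 for Fgfr2 and −0.017 to 0.10 for Spry2, and against Hmgn2-/- mESCs −0.045 to 0.094 for Etv4, −0.11 to 0.023 for Fgf4 and −0.034 to 0.25 for Fgfr2. For the departure from additivity they were −0.079 to 0.075 for Spry4 and −0.20 to 0.11 for Dusp4. The cause was not tested.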
